A study of Mus musculus with 12 samples.

Results

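The cytosolic ribosomal protein genes were followed through YTHDF2 RNA immunoprecipitation sequencing (RIP-seq) of tumor-infiltrating myeloid cells. The members were the genes that the mouse GENCODE annotation calls protein coding and whose symbol begins with Rpl or Rps followed by a number, or is Rpsa, Rplp0, Rplp1 or Rplp2, without the S6 kinase genes (Rps6k). The rule used names only and no measured value. It found 92 of the 54446 genes in the count tables: 46 genes of the large subunit, 31 genes of the small subunit, and 15 copies and look-alikes, which are paralogs such as Rpl3l and Rps27l, retrotransposed copies such as Rps27rt and Rpl36a-ps1, and Rps19bp1, a gene that carries the name of a binding partner of the ribosomal protein S19. The 77 genes of the 2 subunits are called the core members below. The rule does not catch Fau and Rack1, whose proteins are also part of the ribosome, and their values are given beside those of the members.

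The cells were CD11b+ myeloid cells sorted from MC38 tumors, grown from a mouse colon carcinoma line under the skin of WT mice (Ythdf2 fl/fl, with no Cre, so that YTHDF2 is intact in every group). In the IR groups the tumor received local radiation of 20 Gy in a single dose and the cells were taken 3 days later, and the Ctrl groups were not irradiated. Each of the 4 groups (Ctrl Input, IR Input, Ctrl IP and IR IP) held 3 samples, each from 5 pooled mice, which the methods call technical replicates, so the p-values below measure the spread between such pools, which may be technical. Input is RNA of the lysate before immunoprecipitation, and IP is RNA recovered with an antibody against YTHDF2, so the Ctrl and IR comparisons ask how ribosomal protein mRNAs moved with radiation and the IP and Input comparisons ask how strongly they were recovered with YTHDF2.

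A ribosome is built from ribosomal RNA and about as many proteins as there are core members, each needed in like number, and the mRNAs of these proteins are among the most abundant in dividing and in secretory cells. Most of them start with a 5′ terminal oligopyrimidine (TOP) tract, a C followed by a run of pyrimidines, through which the mTOR kinase and the cap-binding protein LARP1 control their translation and stability as a group. YTHDF2 is a cytoplasmic reader of N6-methyladenosine (m6A) that directs bound mRNAs to decay, and m6A is known to be sparse on short transcripts with few long exons, such as those of ribosomal proteins. Some ribosomal proteins also work outside the ribosome: RPL5 and RPL11 bind MDM2 and so stabilize p53, and Rps27l is itself a target of p53.

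The start sites of members show the tract in the letters of the genome. Windows of 30 bases, from 10 before to 20 from the start of the RefSeq transcript (GRCm38.p6), are printed 5′ to 3′ on the strand of the gene, with the pyrimidine tract at the start in capitals. Members on a single chromosome were left out of the next choice, which was made after the sequences were seen. The first 6 are the most abundant other core members that hold a tract at that start:
Rplp2 (chr7:141447641-141447670, plus strand): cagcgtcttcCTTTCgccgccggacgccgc
Rpl35 (chr2:39005112-39005141, minus strand): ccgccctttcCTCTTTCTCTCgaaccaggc
Rps6 (chr4:86857348-86857377, minus strand): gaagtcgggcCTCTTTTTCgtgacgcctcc
Rps18 (chr17:33955646-33955675, minus strand): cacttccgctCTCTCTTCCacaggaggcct
Rpl28 (chr7:4792955-4792984, plus strand): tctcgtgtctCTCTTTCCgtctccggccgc
Rps21 (chr2:180257369-180257398, plus strand): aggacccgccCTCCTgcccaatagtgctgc
The next 3 belong to members with the highest Input level per length, and in the RefSeq tables their start does not fall on such a tract:
Rpsa (chr9:120127756-120127785, plus strand): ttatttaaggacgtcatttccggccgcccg
Rplp0 (chr5:115559457-115559486, plus strand): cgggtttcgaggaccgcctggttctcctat
Rps23 (chr13:90923112-90923141, plus strand): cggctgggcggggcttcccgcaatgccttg
Of the 66 members with an entry, 14 (21.2%) had a C followed by at least 4 letters that were each C or T, read on the strand of the gene only, exactly at the annotated start, against 3.01% of 27025 genes. With the tract allowed to lie anywhere from 4 bases before to 9 after the start, the shares were 43.9% and 16.4%. A run of C and T that begins a few bases inside or outside an annotated start, as in Rpl35 and Rps18, shows how much this count hangs on the position of the start.

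The libraries held 34445784 to 42382532 counts on genes in Input and 27852948 to 33882664 in IP. Reads that fell on no annotated gene took 24.6% to 27.0% of the reads in Input and 41.8% to 54.1% in IP, with the highest values in IR IP. The myeloid markers summed to 4993 to 5112 CPM (counts scaled to a common library total, on a scale normalized across the 12 libraries) in Ctrl Input and 6153 to 6189 CPM in IR Input, with all 11 markers detected. The neutrophil markers, also CD11b+ cells, went from 5754 to 6484 CPM in Ctrl Input to 8106 to 8849 CPM in IR Input, T cell markers stayed under 2 CPM in Input, and proliferation markers went from a mean of 1665 to 1334 CPM. Other cell types were detected too. From Ctrl Input to IR Input the mean of epithelial or tumor cell markers went from 124 to 94.5 CPM. The means of dendritic cell (213 to 251), endothelial (77.4 to 96.4) and B cell markers (19.3 to 26.6 CPM) were higher in IR Input. Single markers did not all follow these sums (log2 fold change, IR over Ctrl in Input, by the edgeR test below). In the myeloid list Itgam rose by 0.79, and Ccr2, Cd68, Fcgr3, Ly6c2 and Tyrobp rose by less. There Adgre1 (−0.24), Csf1r (−0.12) and Ptprc (−0.16) fell, and Lyz2 and Arg1 did not pass. S100a8, S100a9, Csf3r and Retnlg rose, and Cxcr2 and Ly6g did not pass. Mki67, Ccnb1, Ccnb2, Cdk1 and Birc5 fell, Stmn1 rose by 0.11, and Top2a and Pclaf did not pass. In the epithelial or tumor cell list Cdh1 fell by 0.51 and Epcam did not pass. In the dendritic cell, endothelial and B cell lists single markers went both ways. In such bulk samples a change in the mix of cells and a change in the RNA of each cell cannot be told apart, and the part of these markers in the results below was not tested.

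Counting set limits on single members. Of the 92 members, 33 share more than 50% of the 100-base windows of their main transcript letter for letter with a transcript of another gene (median 31.9%, and 12 share none), so reads of Rps27 (98.4% shared, with Rps27rt among others), Rpl10 (84.4%), Rpl36a (83.6%) and Rps6 (83.6%) could be lost or split. Rps10, Rpl24, Rpl13a and Rpl36al overlap a readthrough or second gene model on the same strand, where the counter drops reads as ambiguous, and their counts were low for that class: Rps10, a small subunit protein, had 134, 160 and 225 counts in Ctrl Input. Values of these 4 genes describe the reads left after that loss.

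Ribosomal protein genes took a large share of the counts, and the share was higher after radiation and lower in IP. They drew 8.97%, 8.97% and 8.90% of all gene counts in the 3 Ctrl Input libraries and 11.8%, 11.8% and 11.7% in IR Input. In Ctrl IP they drew 3.85%, 3.85% and 3.82%, and in IR IP 4.80%, 4.82% and 4.80%. The 4 groups did not overlap. The means were 8.95% ± 0.0394, 11.8% ± 0.0578, 3.84% ± 0.0207 and 4.81% ± 0.0133 (SD, n = 3 each). Mitochondrially encoded genes fell in share from 3.70% in Ctrl Input to 1.69% in IR Input, and with only nuclear protein-coding genes in the denominator the member share was 10.2% in Ctrl Input and 12.8% in IR Input. The subunits kept their ratio, with 0.723 small subunit counts for each large subunit count in Ctrl Input, 0.732 in IR Input, 0.705 in Ctrl IP and 0.718 in IR IP.

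**Figure D1:**
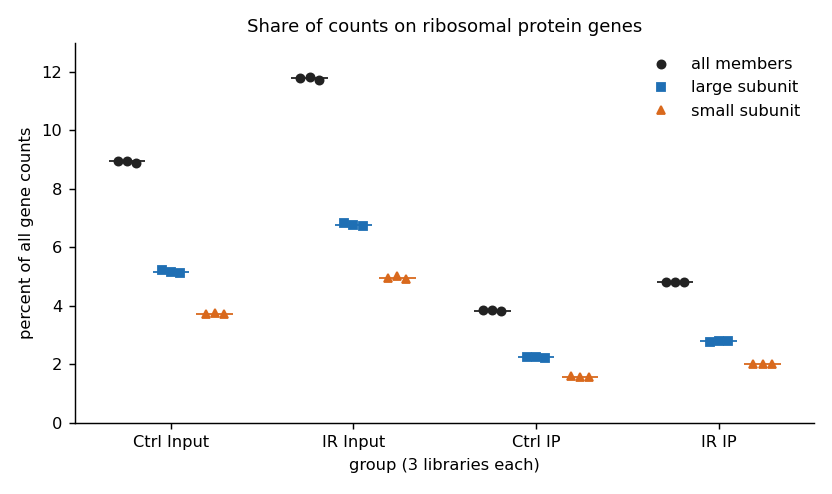
Percent of all gene counts on all 92 members (circles), the 46 large subunit genes (squares) and the 31 small subunit genes (triangles) in each of the 3 libraries of the 4 groups, with group means as lines. Every IR Input library lies above every Ctrl Input library (11.7% or more against 8.97% or less), and the IP libraries lie below both.

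By Input level 40 of the 100 most abundant genes were members, and per length (CPM per kb of exon) 48 of the 100 highest nuclear protein-coding genes. Rplp1, a protein of the stalk through which the ribosome recruits elongation factors, stood highest per length, at 7791 CPM per kb over the 6 Input libraries, followed by Rpsa, the laminin-receptor-like protein of the small subunit (3430 CPM per kb), Rplp0, the base of the stalk (2455), Rps23, a protein of the decoding center (2322), and Rpl23a, a protein at the tunnel exit (2315). The copies given next stood lower than their relatives on the same scale, by unlike amounts. Rpl3l, the muscle paralog of Rpl3, was at 2.21 CPM per kb against 342 for Rpl3, and Rpl22l1 was at 22.3 against 522 for Rpl22. Rps27l was less far below, at 207 CPM per kb against 371 for Rps27, whose shared reads could be lost or split as given above. Rpl10l and Rpl39l, known as testis paralogs, and Rpl9-ps1 stayed under the minimum for testing (10 counts in 3 libraries of a comparison): Rpl10l had 0 counts in 11 libraries and 7 in the remaining library, an IR IP library. Rps4l is not annotated as protein coding and is not a member.

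After radiation the mRNAs of ribosomal proteins rose together in Input, by a similar factor. Of the 88 members tested, 82 rose and 2 fell, where 21% of all 16914 genes rose and 23.9% fell (edgeR quasi-likelihood test, Benjamini-Hochberg adjusted p under 0.05). Their median log2 fold change was 0.44, with the middle of the distribution between 0.37 and 0.49, against 0.01 and −0.26 to 0.25 for all genes tested. Large subunit genes rose in 45 of 46 cases (median 0.43) and small subunit genes in 30 of 31 (median 0.45). The other rising members were 7 of the 11 copies tested.

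**Figure D2:**
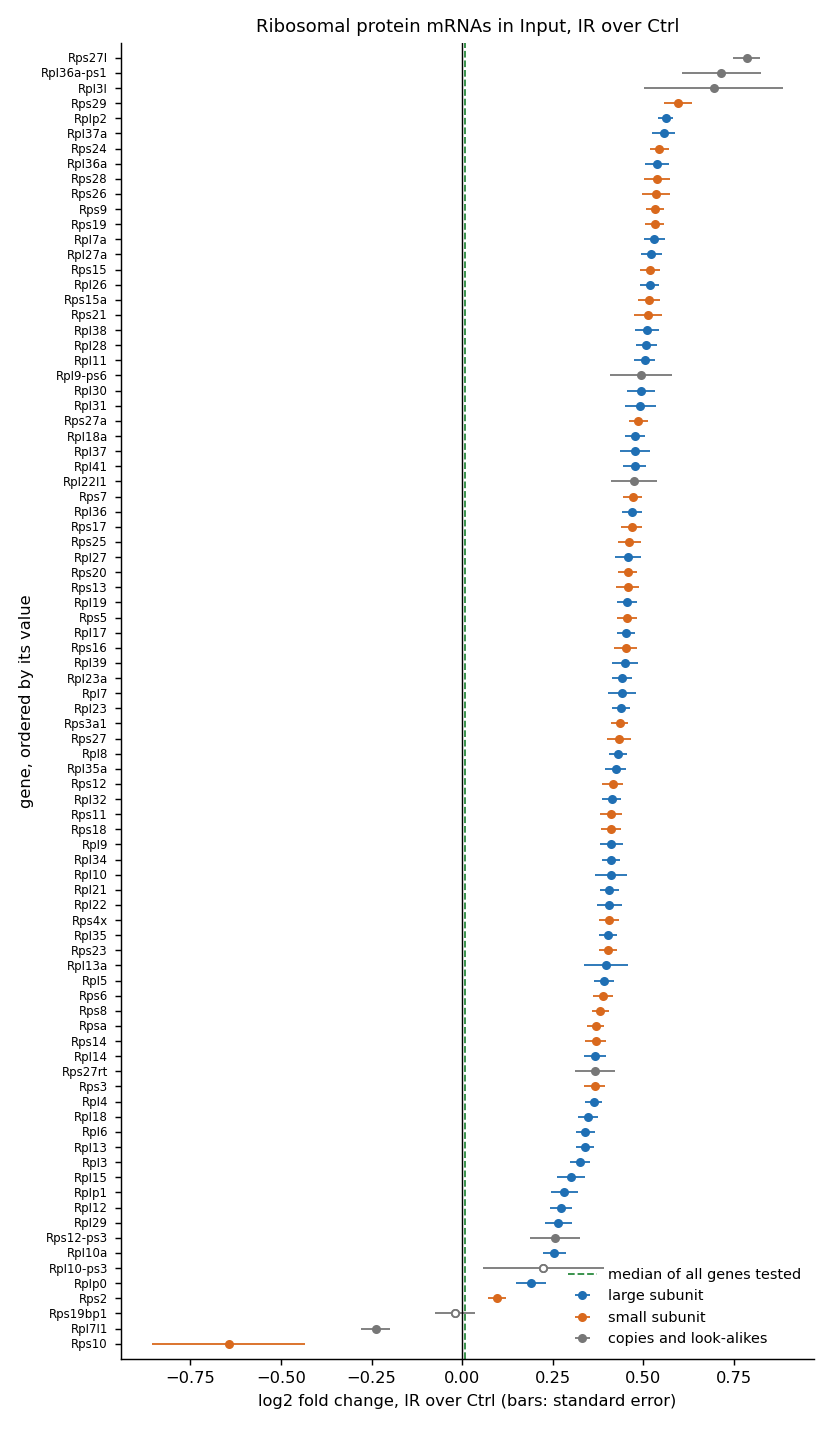
Log2 fold change of IR over Ctrl in Input for the 86 members with a mean of at least 100 counts, ordered by value, with standard errors. Filled points passed the test and open points did not; the green dashed line is the median of all genes tested (0.01), and nearly all members lie between 0.2 and 0.6 to the right of it.

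In the stalk, Rplp2 stood at 3275, 3235 and 3214 CPM in Ctrl Input and at 5066, 5040 and 5050 CPM in IR Input. The 2 groups were far apart and each was tight, and the log2 fold change was 0.56 (SE 0.022, adjusted p = 3.38e-17). Its partner Rplp1 went from 3663, 3242 and 3305 to 4670, 4144 and 4303 CPM (log2 fold change 0.28, SE 0.038, adjusted p = 6.94e-07). Rplp0, from 4044, 3521 and 3515 to 4784, 4193 and 4378 CPM, showed the smallest rise of the 3 (0.19, SE 0.042, adjusted p = 5.38e-04). DESeq2 gave Rplp0 a log2 fold change of 0.19 but did not call it (adjusted p = 0.0816). In these last 2 genes the first library of each group stood above the other 2, and the groups did not overlap.

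Among the large subunit genes with work outside the ribosome, Rpl5 read 1776, 1676 and 1665 CPM in Ctrl Input and 2425, 2314 and 2354 CPM in IR Input (log2 fold change 0.39, SE 0.028, adjusted p = 9.57e-12). Rpl11, which joins Rpl5 and the 5S RNA in the complex that binds MDM2, read 537, 541 and 536 CPM and then 781, 829 and 807 CPM (0.50, SE 0.029, adjusted p = 1.05e-13). Neither gene's groups overlapped. Mdm2 itself, listed with the regulators below, rose by far more in the same Input libraries (1.41, SE 0.031, adjusted p = 1.14e-22). Rpl3, which shapes the peptidyl transferase center, rose by 0.33, Rpl10, a late-joining protein of the subunit, by 0.41, Rpl7 by 0.44, Rpl22 by 0.41, Rpl36a by 0.54, Rpl39, a small protein of the exit tunnel, by 0.45, and Rpl13a, a target of interferon-gamma signaling in myeloid cells, by 0.40 with the counting limit given above.

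In the small subunit, Rpsa was at 9564, 9048 and 8979 CPM in Ctrl Input and at 12760, 12465 and 12418 CPM in IR Input, the highest level of any member. It rose by 0.37 on the log2 scale (chr9:120127689-120132369, plus strand, SE 0.023, adjusted p = 6.76e-13). Rps19, mutated in Diamond-Blackfan anemia, went from 1169, 1191 and 1204 to 1806, 1843 and 1789 CPM (0.53, SE 0.025, adjusted p = 2.04e-15). Rps6, the substrate of the S6 kinases, rose by 0.39, Rps4x by 0.41 and Rps27 by 0.43. Rps29, another zinc-binding small subunit protein, rose most among the core members (0.60, SE 0.038, adjusted p = 6.43e-13): it read 497, 579 and 564 CPM and then 854, 892 and 871 CPM. Rps2, at the entry of the mRNA channel, moved least of the core members past the test, from 1182, 1193 and 1192 to 1352, 1349 and 1327 CPM (0.10, SE 0.025, adjusted p = 0.00251).

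The copies spread more widely than the core members. Rps27l, the p53 target (chr9:66946086-66949516, plus strand, 4 exons in its main transcript), stood at 120, 118 and 123 CPM in Ctrl Input and 213, 216 and 227 CPM in IR Input, and rose most of all members with a mean of 100 counts (log2 fold change 0.79, SE 0.036, adjusted p = 1.09e-15). Its relative Rps27 rose by 0.43. Rpl36a-ps1 rose by 0.72 (SE 0.11) and Rpl3l by 0.69 (SE 0.19, a call lost in a fit of all 12 libraries) at levels of at most 13.01 CPM, and Rpl22l1 by 0.47 (SE 0.063). Against the trend, Rpl7l1, a factor in making the large subunit rather than a part of it, fell from 105, 109 and 105 to 94.5, 92.6 and 98.3 CPM (−0.24, SE 0.040, adjusted p = 1.54e-05, and −0.16, adjusted p = 0.103, in a fit of all 12 libraries). Rps19bp1, a nucleolar protein, did not pass the test (−0.02, SE 0.055, adjusted p = 0.807), nor did Rpl36al (−0.57, SE 0.27, adjusted p = 0.0857).

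Rps10 also fell (−0.64, SE 0.21, adjusted p = 0.0145), but at 3.83, 4.11 and 5.53 CPM in Ctrl Input against 3.91, 3.32 and 1.91 CPM in IR Input the groups overlap, and the call was lost without Ctrl Input replicate 3 (−0.47, adjusted p = 0.133) or IR Input replicate 3 (−0.39, adjusted p = 0.117). With the counts of its pseudogenes added the value was 0.18, so the direction for Rps10 rests on how its reads were assigned.

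In YTHDF2 IP the members were depleted relative to Input, and this held across both subunits. In Ctrl, 83 of 89 members were lower in IP and 2 were higher, where 34.6% of the 17416 genes tested were lower and 34.1% higher. On the log2 scale the median IP over Input value was −1.24 over the members and 0.02 over all genes. In IR, 84 of 89 members were lower and 1 was higher, where 30.4% of 18650 genes were lower and 32.1% higher, with medians of −1.60 and 0.10. Large subunit genes had a median of −1.09 in Ctrl and −1.56 in IR, and small subunit genes of −1.48 and −1.79. The median over the members for each IP library against the Input of the same number, on the 12-library scale, was −1.23, −1.30 and −1.35 in Ctrl and −1.68, −1.67 and −1.66 in IR. The values of each condition were close and the conditions did not overlap.

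**Figure D3:**
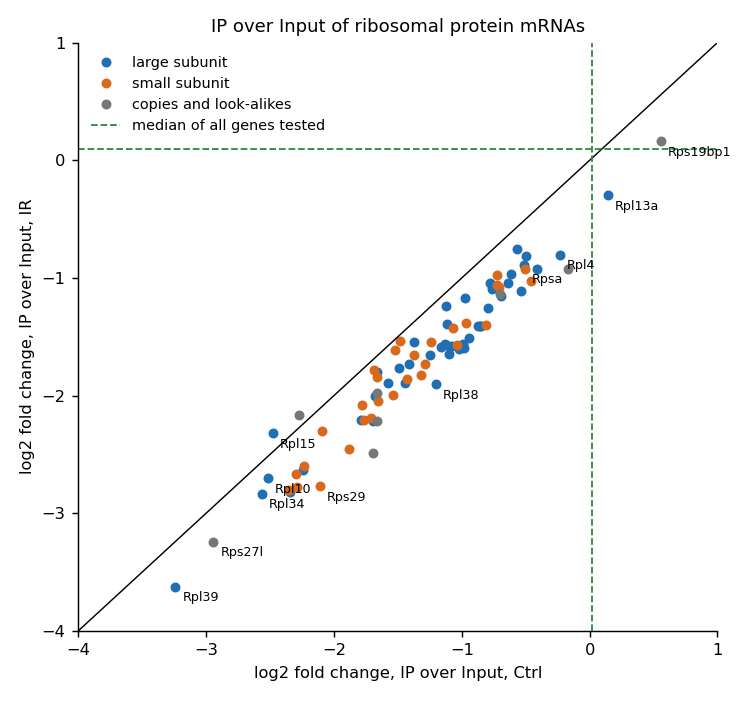
Log2 of IP over Input, in Ctrl (horizontal) against IR (vertical) for the 83 members with a mean of at least 100 counts in both; the solid line marks equal values and the dashed lines the medians of all genes tested (0.02 and 0.10). Members spread from Rpl39 (−3.24 and −3.62) to Rps19bp1 (0.56 and 0.16), and most lie under the line.

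The strongest depletion among core members was that of Rpl39 (chrX:37082520-37085402, minus strand, with a coding sequence of 153 bases). It read 196, 205 and 217 CPM in Ctrl Input and 19.9, 22.9 and 19.1 CPM in Ctrl IP, and 301, 297 and 294 CPM in IR Input against 18.7, 23.4 and 27.5 CPM in IR IP. The log2 fold change was −3.24 (SE 0.069, adjusted p = 6.25e-17) in Ctrl and −3.62 (SE 0.11, adjusted p = 5.24e-10) in IR, so IP and Input did not come near each other in either condition. Rps27l followed (−2.94 in Ctrl and −3.24 in IR): its IP libraries read 15.5, 15.6 and 13.1 CPM in Ctrl and 24.3, 18.7 and 23.6 CPM in IR. Rpl34 (−2.56 and −2.83) and Rpl10 (−2.52 and −2.70) stood next in Ctrl, with Rpl15 (−2.48 and −2.32), and in IR Rpl32 (−2.82) and Rps15a (−2.80) were among the lowest 5. Rps7, another MDM2 binder, was at −2.29 in Ctrl.

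At the other end, Rpl4, a large protein of the exit tunnel, was only slightly lower in IP in Ctrl: 1722, 1743 and 1735 CPM in Input against 1422, 1416 and 1355 CPM in IP (−0.23, SE 0.032, adjusted p = 3.86e-06). In IR it was at −0.80. Rpl8 was at −0.50 in Ctrl and −0.81 in IR, Rpl3 at −0.57 and −0.75, Rpl36a at −0.51 and −0.89, Rpl5 at −0.61 and −0.96, and Rps6 at −0.72 and −1.06. Rpsa, with 5941, 6043 and 6451 CPM in Ctrl IP and 6329, 6192 and 6572 CPM in IR IP, was at −0.51 (SE 0.034) and −0.92 (SE 0.026). These genes passed the test in both conditions.

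Within the stalk the depth of depletion differed: in Ctrl it was −1.68 (SE 0.053) for Rplp1, −0.97 (SE 0.052) for Rplp0 and −0.94 (SE 0.039) for Rplp2. Rplp1 read 949, 971 and 1101 CPM in Ctrl IP and Rplp2 1488, 1629 and 1676 CPM, although the 2 genes had near equal CPM in Ctrl Input. Rpl11 was at −1.10, Rpl7 at −1.12, Rps19 at −1.24, Rps27 at −1.29, Rpl22 at −1.44, Rpl22l1 at −1.67 and Rps4x at −1.69 in Ctrl, each past the test.

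Few members were not called lower in IP. Rps19bp1 was higher in IP in Ctrl, with 48.9, 45.6 and 44.6 CPM in Input and 67.4, 62.5 and 64.5 CPM in IP (0.56, SE 0.067, adjusted p = 8.75e-07), and did not pass the test in IR (0.16, adjusted p = 0.189, and past it with library sizes alone, with the stricter count filter or over nuclear protein-coding genes only, at 0.28 to 0.31). The retrotransposed copy Rpl36-ps4, at no more than 10 counts in any Input library and 21 to 72 in the IP libraries, was higher in both (4.37, SE 0.77, and 2.58, SE 0.64). It met the minimum for testing only through the IP libraries, where it was high, and was not tested in IR over Ctrl in Input. Its calls as higher were thus favored by the filter. It is the only member called higher in IR. Rpl13a did not pass in Ctrl (0.14, adjusted p = 0.169) and was lower in IR (−0.30, adjusted p = 0.0121, and −0.15, adjusted p = 0.108, without IR IP replicate 2), a call also lost with library sizes alone, with the stricter filter and over nuclear protein-coding genes only (−0.18 to −0.15). Rps10 did not pass in either (0.25, adjusted p = 0.334, and −0.61, adjusted p = 0.227), but with the counts of its pseudogenes added it was lower in both (−1.45, adjusted p = 5.24e-10, and −1.995, adjusted p = 5.72e-07). Rpl24 did not pass in either (−0.91, adjusted p = 0.128, and −1.03, adjusted p = 0.219), nor did Rpl36a-ps1 in Ctrl (−0.17, adjusted p = 0.402). Rpl3l (−1.27) and Rpl36al (−1.27, adjusted p = 0.0163, at 15 to 35 counts in Ctrl IP) were lower in Ctrl. The call for Rpl36al was lost without Ctrl IP replicate 2 (−1.02, adjusted p = 0.0522), without Ctrl Input replicate 2 (−1.20, adjusted p = 0.0688) and in a fit of all 12 libraries (−1.35, adjusted p = 0.0617).

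Across all nuclear protein-coding genes the IP over Input value went down with Input level (Spearman −0.20 over 13029 genes in Ctrl and −0.40 over 13791 in IR) and up with coding length (0.25 over 13019 and 0.35 over 13782 genes). Members are both abundant and short, with a median main transcript of 798 bases against 2547 for protein-coding genes. Within the 77 core members the sign for Input level was the opposite, 0.29 in Ctrl and 0.31 in IR. Input level is also the denominator of IP over Input, and the filter keeps genes with few Input counts only where IP counts are high. Both favor a negative correlation with level from the start. Genes also share libraries and depth, so these are descriptions, and the part of level and length in the depletion was not tested.

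Within the core members, the shorter the coding sequence, the lower the IP over Input value tended to be. In the 26 shortest (75 to 405 bases) the median was −1.62 in Ctrl and −1.96 in IR, in the middle 25 it was −1.10 and −1.56, and in the 26 longest (576 to 1257 bases) −0.97 and −1.31. Spearman's correlation with coding length was 0.35 in Ctrl and 0.50 in IR (n = 77 genes). With the length of the whole main transcript it was weak, 0.13 in Ctrl and 0.20 in IR. The pattern is thus one of coding length, not of transcript length. The rise in Input went the other way with coding length, with medians of 0.48, 0.45 and 0.39 and a correlation of −0.56, where all nuclear protein-coding genes gave −0.24. Rpl41, the shortest at 75 bases, did not follow the order, at −0.85 in Ctrl and −1.41 in IR. The sequence context of m6A sites (DRACH) was found at a median of 18.03 per kb of main transcript in members against 20.3 in protein-coding genes, and its correlation with IP over Input over the core members was 0.16 in Ctrl and 0.15 in IR. Both correlations are weak. The 13 core members with the pyrimidine tract at the annotated start had a median IP over Input of −1.20 in Ctrl and a median change in Input of 0.42, and the 44 others with an entry −1.15 and 0.44.

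**Figure D4:**
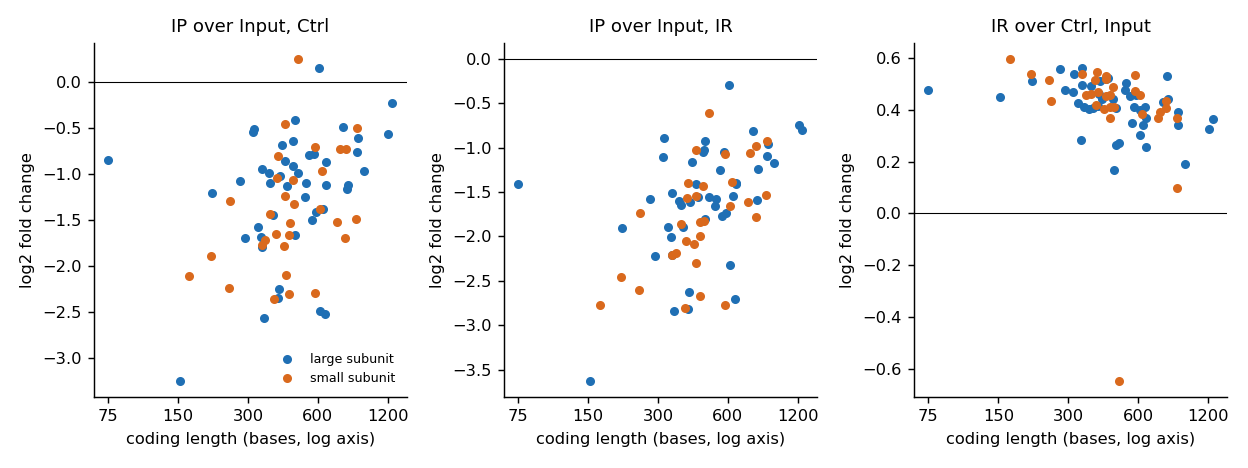
Log2 fold change against the coding length of the main transcript (log axis) for the 77 core members, for IP over Input in Ctrl and in IR and for IR over Ctrl in Input. Values of IP over Input go from a median of −1.62 in the shortest group to −0.97 in the longest in Ctrl, and the rise in Input from 0.48 to 0.39, with Rps10 alone under 0 in the last panel.

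The change of IP over Input with radiation, tested as an interaction over all 12 libraries, was downward for most members and depended on how the libraries were scaled. With TMM scaling (edgeR's correction for library composition) 66 of 89 members fell and the other 23 did not pass, where 13.9% of 20720 genes fell and 6.28% rose. With library sizes alone 18 fell and 5 rose. The median over the members was −0.40 with TMM and −0.08 with library sizes alone, while that over all genes moved from −0.08 to 0.23, so the members lay 0.31 under all genes in either case. The member median was not particular to the cytosolic ribosome: the 77 mitochondrial ribosomal protein genes tested had −0.44, with 30 falling and 47 not passing, and with library sizes alone −0.13, with 6 falling and 5 rising. The direction for the members named next is therefore that under TMM, and Rpl3, Rpl7, Rplp0, Rplp1, Rps2, Rps3, Rps4x, Rps19, Rps27l and Rack1 turned positive with library sizes alone.

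**Figure D5:**
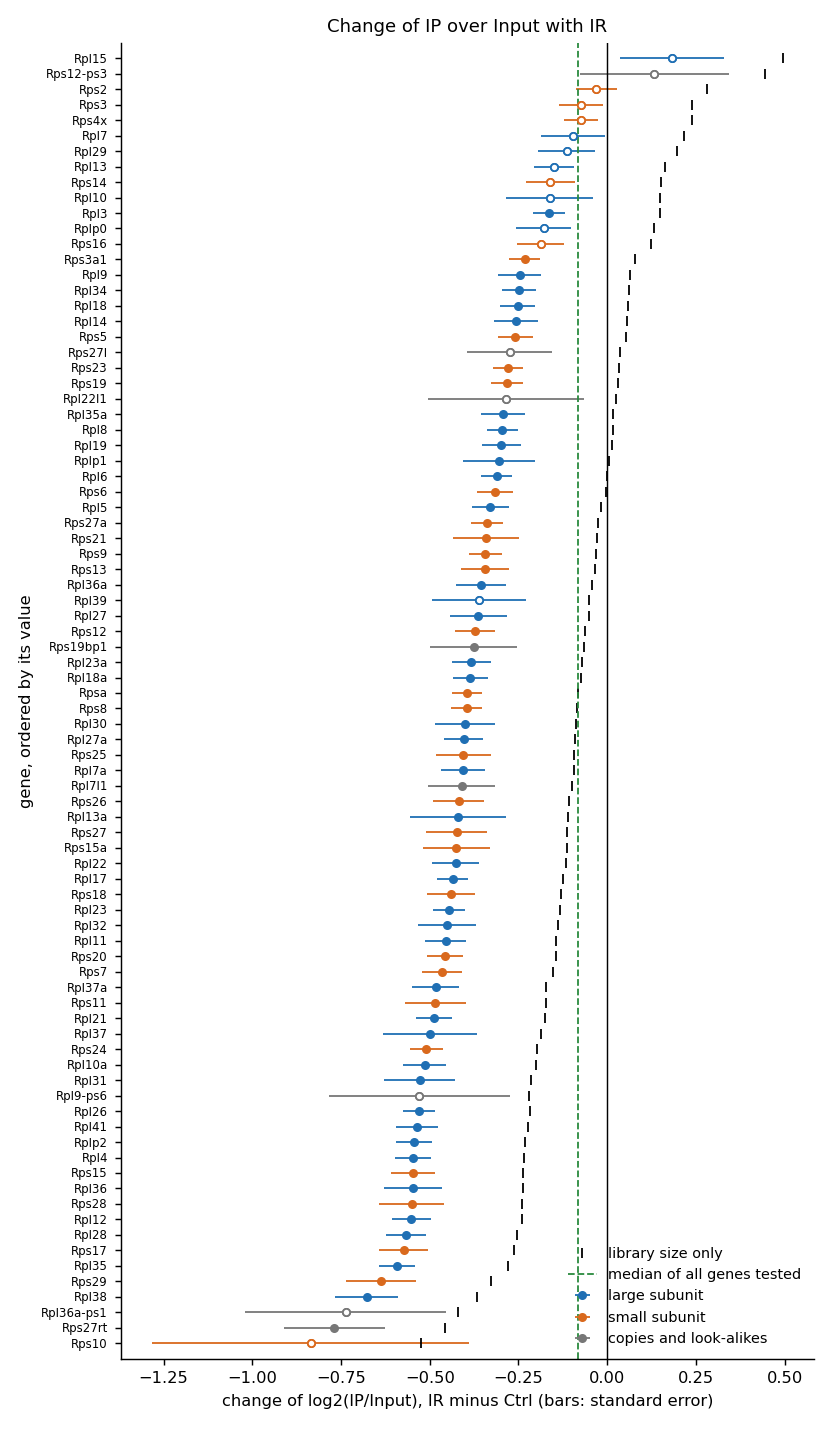
Change of log2(IP/Input) with IR for the 84 members with a mean of at least 100 counts, ordered by value, with standard errors; filled points passed the test with TMM scaling and open points did not. The black ticks give the same values with library sizes alone, all shifted to the right, and the green dashed line is the median of all genes under TMM (−0.08).

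Rps29 and Rpl38 showed the largest falls of the core members past the test. Rps29 IP libraries read 122, 130 and 107 CPM in Ctrl and 111, 133 and 125 CPM in IR, overlapping, while Input rose as given above, and the change was −0.64 (SE 0.098, adjusted p = 7.56e-05). Rpl38, known for its part in the translation of homeobox mRNAs, went from 417, 457 and 453 to 644, 678 and 675 CPM in Input and from 193, 185 and 169 to 156, 192 and 165 CPM in IP (−0.68, SE 0.089, adjusted p = 1.29e-05). Rpl4 (−0.55) and Rplp2 (−0.54, SE 0.051, adjusted p = 1.71e-07) were close behind. In IP itself none of these 4 genes passed the test between IR and Ctrl (−0.09 to 0.11).

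Smaller falls were measured in Rpl11 (−0.46), Rpl22 (−0.43), Rps27 (−0.42), Rpl7l1 (−0.41), Rpsa (−0.39, SE 0.043, adjusted p = 1.06e-06), Rpl36a (−0.36, and −0.24 without IR IP replicate 3), Rpl5 (−0.33), Rps6 (−0.32) and Rps19 (−0.28). With library sizes alone none of these 9 passed. Rpl13a (−0.42, adjusted p = 0.0322), Rps19bp1 (−0.38, adjusted p = 0.0336) and Rplp1 (−0.31, adjusted p = 0.0401) were at the edge of the test, and 8 or 9 of the 12 fits that each leave out a library lost each of these calls. Rpl3 (−0.16, adjusted p = 0.0130) lost its call without any Ctrl IP library in turn or IR IP replicate 3, and passed as higher with library sizes alone (0.15, adjusted p = 0.0158). DESeq2 called none of these 4 genes (adjusted p from 0.0534 to 0.287). Rps27rt, the copy of Rps27, fell by 0.77 (SE 0.14, adjusted p = 5.06e-04).

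Members with no change detectable here were Rpl15 (0.18, SE 0.15), Rps12-ps3 (0.13, SE 0.21), Rps2 (−0.03, SE 0.057), Rps3 (−0.07, SE 0.063), Rps4x (−0.07, SE 0.049), Rpl7 (−0.10, SE 0.091) and Rplp0 (−0.18, SE 0.079), with adjusted p from 0.123 to 0.780. Rpl39 (−0.36, SE 0.13, adjusted p = 0.0629, and 0.0328 with the replicate block) and Rps27l (−0.27, SE 0.12, adjusted p = 0.121) had larger values but wider errors at 13.1 to 27.5 CPM in IP. Rps10 (−0.84, SE 0.45, adjusted p = 0.219) and Rpl36a-ps1 (−0.74, SE 0.28, adjusted p = 0.0763) had values as low as those of the members called, but did not pass. With pseudogene counts added Rps10 was at −0.52 and passed (adjusted p = 0.0445), and with library sizes alone Rps2 (0.28), Rps3 (0.24), Rps4x (0.24) and Rpl15 (0.50) passed as higher.

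Within the IP libraries themselves, the members moved less with radiation than in Input. In IR over Ctrl in IP, 33 of 89 members rose and 3 fell, where 6.12% of 19255 genes rose and 9.85% fell, with medians of 0.15 and 0.06, and with library sizes alone 67 rose and 2 fell with medians of 0.35 and 0.27. This comparison and the one in Input use different libraries, and the difference between them is the interaction above. Rps27l rose most (0.60, SE 0.16, adjusted p = 0.0193, and 0.53, adjusted p = 0.0980, without Ctrl IP replicate 3). Rpl15, a large subunit protein, went from 42.5, 37.6 and 33.1 to 63.2, 60.5 and 43.2 CPM (0.57, SE 0.14, adjusted p = 0.0105, and 0.49, adjusted p = 0.0649, without Ctrl IP replicate 3). Rpl7 rose by 0.43, Rps4x by 0.42 (226, 220 and 218 to 295, 296 and 290 CPM) and Rps19 by 0.34, and Rps12-ps3 was at 0.48 (SE 0.28, adjusted p = 0.289). Rps4x and Rpl15 had groups that did not overlap.

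Rpl7l1 fell in IP as in Input, from 62.4, 66.4 and 57.2 to 39.0, 43.0 and 43.1 CPM (−0.56, SE 0.10, adjusted p = 0.00101). Rpl12, a protein at the base of the stalk, fell by 0.19 on the log2 scale (adjusted p = 0.00983, and −0.16, adjusted p = 0.0667, without Ctrl IP replicate 3), and with library sizes alone its value was 0.02. Rps10 was at −1.39 (SE 0.38, adjusted p = 0.0200), a call lost without Ctrl IP replicate 1 or 3 or IR IP replicate 2 (adjusted p from 0.0576 to 0.124) and with pseudogene counts added (−0.26). Rps27rt (−0.32, adjusted p = 0.317) and Rps19bp1 (−0.31, adjusted p = 0.0561) did not pass. Rpsa in IP was at 0.06 (SE 0.031, adjusted p = 0.197, and 0.27 with library sizes alone).

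Fau and Rack1 rose in Input, as most members did. Fau, a fusion of a ubiquitin-like protein with the small subunit protein S30, rose in Input by 0.50 (SE 0.032, adjusted p = 9.09e-13), from 1915, 1749 and 1718 to 2739, 2653 and 2651 CPM. Rack1, a scaffold at the head of the small subunit, rose by 0.30 (SE 0.026). Fau did not pass in IP over Input in Ctrl (0.06, SE 0.040, adjusted p = 0.183), passed as lower with library sizes alone (−0.12, adjusted p = 0.00579) and as higher over nuclear protein-coding genes only (0.16, adjusted p = 0.00198), and was lower by little in IR (−0.35), whereas Rack1 was at −1.05 and −1.35. With radiation the IP over Input value of Fau fell by 0.39 and that of Rack1 by 0.28, neither past the test with library sizes alone.

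The mitochondrial ribosomal protein genes, encoded in the nucleus for a separate ribosome, did not share the rise in Input. Of 77 tested, 16 rose and 14 fell, with a median of 0.01. Depletion in IP was seen there too, with 57 lower and 10 higher in Ctrl (median −0.81) and 68 lower and 2 higher in IR (median −1.17). Of 17 other mRNAs known to carry a TOP tract, mostly elongation and initiation factors, 15 rose in Input (median 0.33). Eef1a1 rose by 0.41, Eef2 by 0.23, Tpt1 by 0.41, Naca by 0.43 and Pabpc1 by 0.26, and the other two, Eif4b (0.02) and Hnrnpa1 (0.03), did not pass. All 17 were lower in IP in Ctrl (median −1.01) and 16 in IR (median −1.39), and with radiation 7 fell and 10 did not pass (median −0.12), a direction that flipped with library sizes alone, where 9 rose and 8 did not pass (median 0.19).

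Of 11 genes listed as regulators of ribosomal protein mRNAs, 3 rose in Input and 6 fell, where 21% of all genes tested rose and 23.9% fell. The list also held Mdm2, whose protein is bound by RPL5 and RPL11 and which is not such a regulator. Myc, which drives their transcription, fell by 1.13 on the log2 scale, Mtor, the kinase itself, by 0.71 and Larp1 by 0.61, while Mdm2 (1.41), Eif4ebp1 (0.47) and Rps6kb2 (0.37) rose. Larp1, whose protein binds the TOP tract, was itself well recovered in IP, at 2.03 (SE 0.036) in Ctrl and 1.44 (SE 0.048) in IR, opposite to the members.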

How the data were processed

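The deposited files hold raw HTSeq counts per gene for each of the 12 libraries, the authors having trimmed reads with Trimmomatic 0.39 and aligned them with HISAT 2.1.0 to mm10 with GENCODE M19. The strand setting and version of HTSeq are not given in the sources used here, and the labels and methods differ on the antibody and on whether mRNA was selected. The 5 summary lines per library were left out of library sizes. Gene names, types and lengths came from GENCODE M21, which matched 99.9% of identifiers by stable ID, and promoter windows from RefSeq (GRCm38.p6).

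Each comparison was fitted over all genes with edgeR 4.0.16 in R 4.3.3 (quasi-likelihood test, TMM, at least 10 counts in 3 libraries, Benjamini-Hochberg adjusted p under 0.05) on the groups compared, and the interaction on the 12 libraries. The SE was taken as |log2 fold change| over √F. Levels are CPM on the 12-library TMM scale, not the fits' own scale. DESeq2 1.42.0 was an alternative, with other scalings, filters, gene sets, the replicate block and fits leaving out each library. The code was tested on simulated counts.

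By the methods Input is a part of the lysate used for IP. That IP and Input of the same number come from the same pool is not stated and was assumed. Their deviations from the group means hardly correlated (−0.019 to 0.024 over 20720 genes, all pairs of groups included). Ctrl and IR pools are different mice. Named genes were a list of paralogs, stalk proteins and proteins with other functions, the 5 highest and 5 lowest members with a mean of 100 counts in each comparison, and the 5 with the highest Input level per length. Rpl24, Rpl36-ps4, Rpl9-ps1, Rps7 and Rpl41, and genes given in comparisons other than the one that named them, were chosen after their values were seen. Windows with a tract are those of the core members most abundant in Input, outside the chromosome that was left out. A gene of the named list is not reported here. The members, lists and rules were chosen with earlier results of these data known. Libraries held at least 27852948 counts on genes, which limits mainly the scarce copies.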

Additional observations from a re-analysis of the deposited data

Results flagged for a closer look

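These members, and 2 other ribosome proteins, had an IP over Input value that differed between Ctrl and IR by the interaction test (edgeR, TMM scaling, 3 libraries per group). The change of log2(IP/Input) was −0.77 for Rps27rt, −0.68 for Rpl38, −0.64 for Rps29 and −0.54 for Rplp2. It was −0.46 for Rpl11, −0.43 for Rpl22, −0.42 for Rps27, −0.42 for Rpl13a, −0.41 for Rpl7l1, −0.39 for Rpsa and −0.39 for Fau. It was −0.38 for Rps19bp1, −0.36 for Rpl36a, −0.33 for Rpl5, −0.32 for Rps6, −0.31 for Rplp1, −0.28 for Rps19, −0.28 for Rack1 and −0.16 for Rpl3. With library sizes alone Rpl3, Rplp1, Rps19 and Rack1 turned positive, as given for the processing. Rpl11, Rpl22, Rps27, Rpl13a, Rpl7l1, Rpsa, Fau, Rps19bp1, Rpl36a, Rpl5 and Rps6 kept their sign there but no longer passed. DESeq2 did not call Rpl13a, Rps19bp1, Rplp1 or Rpl3.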

How the results depend on the processing

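Of 2278 alternative values for 133 results on single genes, 2133 kept their direction and side of the threshold, 31 passed it newly, 77 lost it and 37 changed sign. The number of members called higher in Input (80 to 83) and lower in IP over Input (82 to 85) moved little under every alternative run. The main analysis tested 88 and 89 members, and other filters and sets of libraries can change how many are tested. Members called higher in IP over Input, 2 in Ctrl and 1 in IR, became 1 and 1 with at least 10 counts in every library, 3 and 2 over nuclear protein-coding genes, and 2 in IR with library sizes alone, and leaving out each library gave 1 to 2 in either. The 2 members called lower in Input became 1 with pseudogene counts added, 0 in a fit of all 12 libraries, and 1 to 2 without a library. The scaling set the interaction: 18 members lower and 5 higher with library sizes alone, against 58 to 70 lower under the others and 59 to 67 lower and 0 to 1 higher without a library. In IR over Ctrl in IP, members called higher were 67 with library sizes alone, 22 without a filter, 48 with the stricter filter, 44 in the fit of all libraries and 22 to 37 without a library, and those called lower were 5 with the replicate block, 8 in the fit of all libraries and 1 to 4 without a library.

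Member medians for IP over Input in Ctrl were −1.43 with library sizes alone, −1.36 unfiltered, −1.15 over nuclear protein-coding genes and −1.32 in the fit of all libraries, with −1.26 to −1.18 without a library. In IR they were −1.55 with DESeq2 or its size factors, −1.45 with library sizes alone, −1.72 unfiltered, −1.48 with the stricter filter, −1.46 over nuclear protein-coding genes and −1.65 in the fit of all libraries, with −1.61 to −1.52 without a library. Interaction medians were −0.084 with library sizes alone, −0.28 with the stricter filter, −0.32 over nuclear protein-coding genes and −0.41 to −0.31 without a library. The Input median was 0.52 in the fit of all libraries and 0.42 to 0.44 without a library. In IP it was 0.16 with DESeq2 or its size factors, 0.35 with library sizes alone, 0.12 unfiltered, 0.20 with the stricter filter, 0.17 over nuclear protein-coding genes, 0.14 with pseudogene counts, 0.14 in the fit of all libraries and 0.14 to 0.18 without a library. Over nuclear protein-coding genes the share of counts was 10.2% in Ctrl Input, 12.8% in IR Input, 4.31% in Ctrl IP and 5.45% in IR IP, and with pseudogenes 9.09%, 11.97%, 3.91% and 4.90%; without a library it was 8.93% to 8.97%, 11.8% to 11.8%, 3.83% to 3.85% and 4.80% to 4.81%.

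These signs turned, and the cause was not tested beyond the change of scaling or gene set itself. With library sizes alone the interaction was 0.15 for Rpl3, 0.22 for Rpl7, 0.13 for Rplp0, 0.0059 for Rplp1, 0.24 for Rps4x, 0.031 for Rps19, 0.036 for Rps27l, 0.034 for Rack1, 0.28 for Rps2 and 0.24 for Rps3, Rpl13a in IP over Input in Ctrl was −0.040, Fau −0.12 and Rpl12 in IP 0.015. With the stricter filter the interaction was 0.014 for Rpl7, 0.037 for Rps4x, 0.081 for Rps2 and 0.038 for Rps3, over nuclear protein-coding genes 0.0049 for Rps4x, 0.048 for Rps2 and 0.0056 for Rps3, and 0.028 for Rps2 with DESeq2 or its size factors. Fau in IP over Input in Ctrl was −0.052 unfiltered and −0.013 in the fit of all libraries, where Rps19bp1 in Input was 0.059. With pseudogene counts Rps10 was −1.45 in IP over Input in Ctrl and 0.18 in Input. Without a library the interaction ranged from −0.14 to 0.041 for Rpl7, −0.048 to 0.077 for Rps2, −0.092 to 0.0052 for Rps3 and −0.085 to 0.0049 for Rps4x, and the Input value from −0.055 to 0.020 for Rps19bp1. None of these passed the test in the main analysis except Rpl3, Rplp1, Rps19 and Rack1 in the interaction, Rpl12 in IP and Rps10 in Input. The replicate block moved no count of members by over 1.5 times other than the 5 lower in IP. It gave 67 lower in the interaction and 83 and 85 lower in IP over Input, where it joins IP and Input of the same number, assumed to be 1 pool. Between Ctrl and IR it gave 82 higher in Input and 41 higher in IP. There it joins pools of different mice by their number alone. The calls gained in IP, Rpsa (adjusted p = 0.00775) and Rps19bp1 (adjusted p = 0.0410) among them, have no true pairing behind them. Counts limit Rps10, Rpl24, Rpl36al, Rpl3l and the retrotransposed copies, most of them under 10 CPM.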

Other observations

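The annotation holds 292 pseudogenes named after 60 of the members. Together they drew counts equal to 1.57% ± 0.00818 of those of the members in Ctrl Input, 1.55% ± 0.0172 in IR Input, 1.89% ± 0.0333 in Ctrl IP and 1.85% ± 0.0672 in IR IP (SD, n = 3). The 15 copies and look-alikes among the members drew 0.455%, 0.436%, 0.447% and 0.361% of the member counts in the same groups. Mitochondrial ribosomal protein genes took 0.333% of all counts in Ctrl Input and 0.339% in IR Input, against 0.235% in Ctrl IP and 0.209% in IR IP.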
